A study of Mus musculus with 3 samples.

Results

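The peroxiredoxin family, the 6 genes Prdx1 to Prdx6, was followed through 3 polyadenylated RNA libraries of ST2, a stromal line from mouse bone marrow whose cells can become osteoblasts or adipocytes. The members were taken by gene name from a table of 51826 rows, and all 6 were found, each on 1 row. Empty vector with control siRNA made the control, and the NELL2-Myc construct with the same siRNA made the NELL2 overexpression sample. In the Fn1 knockdown sample, siRNA against Fn1 went in with the empty vector. Every siRNA was used at 30 nM, and vector and siRNA entered together with lipofectamine in all samples. NELL2 is a secreted glycoprotein and Fn1 encodes fibronectin, a matrix protein bound by integrins. The comparisons address how RNA levels differ once NELL2 is overexpressed or fibronectin depleted. Each group was 1 library, so every difference is one between libraries with no replicate check and no test.

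Peroxiredoxins are abundant enzymes that reduce hydrogen peroxide and organic peroxides through a reactive cysteine. Most of them are returned to their active form by thioredoxin, which thioredoxin reductase recharges with NADPH, and sulfiredoxin repairs members that have been oxidised too far. Prdx6 differs in that it uses a single catalytic cysteine and draws on glutathione together with pi-class glutathione transferases. Prdx1 is a well known target of NRF2, the transcription factor of the antioxidant response.

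In these libraries Prdx1 and Prdx6 stood apart from the other 4 members. After Fn1 knockdown, Prdx1 was 2.60-fold and Prdx6 3.49-fold above the control in FPKM (fragments per kilobase of transcript, scaled to the depth of the library). With NELL2 overexpression, Prdx6 was 2.22-fold and Prdx1 1.42-fold above it. Prdx2, Prdx3, Prdx4 and Prdx5 stayed between 0.901-fold and 1.30-fold of the control in both libraries. The pair Prdx1 and Prdx6 was selected on these same FPKM ratios, so the contrast is a description and not a finding of its own.

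The libraries were first checked against their labels. Control, NELL2 and knockdown values were 2802, 2489 and 137 FPKM for Fn1 and 0.640, 326 and 1.06 FPKM for Nell2. All 8 stromal and mesenchymal markers examined reached 1 FPKM in every library, among them Col1a1 at 1352 to 1601 FPKM. All 7 erythroid markers, which matter because red cells are rich in Prdx2, were below 1 FPKM, as were the 3 adipocyte, 3 endothelial and 3 mature osteoblast markers. The 5 macrophage and leukocyte markers summed to 5.73 FPKM in the control, 6.05 with NELL2 and 3.01 after Fn1 knockdown, with Ptprc at 0.0331 to 0.0633 FPKM. The markers did not move together. Control, NELL2 and knockdown values were 4.08, 3.54 and 1.57 FPKM for Cd68, 1.06, 1.23 and 1.06 FPKM for Csf1r, 0.426, 0.950 and 0.273 FPKM for Adgre1, and 0.125, 0.260 and 0.0740 FPKM for Itgam. The part of such cells in the results was not tested, and in bulk RNA fewer cells of a type and less RNA per cell cannot be told apart. Depth, estimated from low FPKM values, was about 23000000, 23700000 and 24200000 fragments, and the column sums of FPKM lay between 396351 and 398718.

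**Figure D1:**
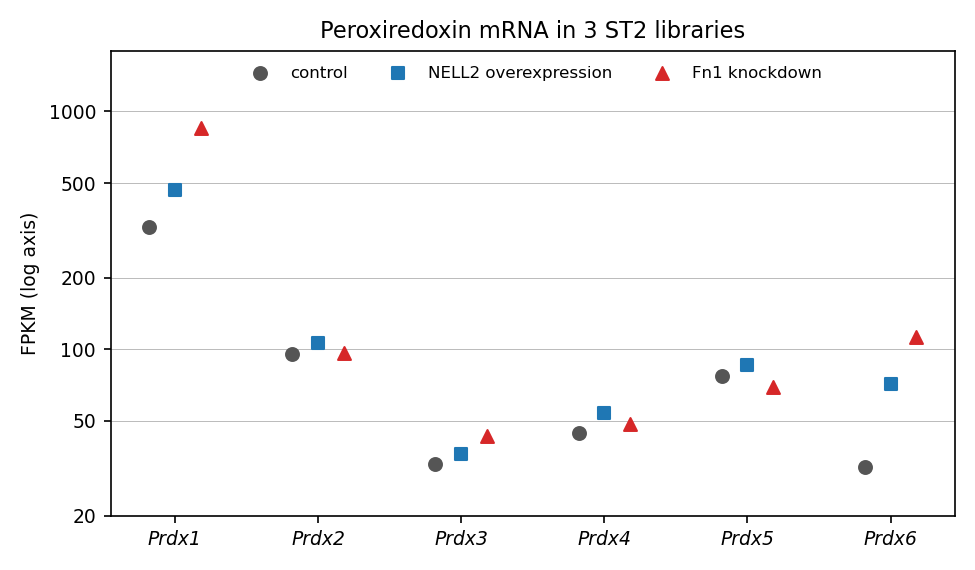
FPKM of the 6 peroxiredoxin genes (log axis) in the control (circles), NELL2 overexpression (squares) and Fn1 knockdown (triangles) libraries, with 1 library a point. Prdx1 runs from 328 to 854 FPKM and Prdx6 from 32.2 to 112 FPKM, whereas each of the other 4 members stays within a narrow band.

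Prdx1 encodes the main cytosolic peroxiredoxin and was the most abundant member throughout. It lies on GRCm38 chromosome 4, 116685544 to 116700822, plus strand (ENSMUSG00000028691.12, 6 annotated transcripts). Its level was 328 FPKM (control), 467 FPKM (NELL2) and 854 FPKM (Fn1 knockdown), or about 5000, 7300 and 14000 fragments. The knockdown library was thus highest, the NELL2 library second and the control lowest, and Prdx1 moved from rank 172 among all genes in the control to rank 111 and rank 35. The log2 ratio of FPKM + 1 to the control was 0.51 with NELL2 and 1.38 after knockdown. Knockdown exceeded NELL2 overexpression by 0.87 on this scale, a 1.83-fold difference in FPKM.

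Its exons overlapped those of no other gene. Of the 3100 distinct stretches of 100 bases in its transcripts, 19 (0.613%) also occurred in another gene, in the processed pseudogenes Gm7204 and Gm21399. Gm7204 was at 0.278, 0.492 and 1.26 FPKM in the control, NELL2 and knockdown libraries, and Gm21399 was at 0.196, 0.364 and 0.631 FPKM. Both pseudogenes followed the order of Prdx1 at less than 1% of its level. The nearest coding genes stayed close to the control, with Akr1a1 at 298, 305 and 333 FPKM and Mmachc at 7.51, 7.02 and 8.28 FPKM.

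The promoter region of Prdx1 is shown because this gene moved and because its upstream sequence holds letters that NRF2 and AP-1 factors are known to read. Prdx3, which moved far less, is given beside it. RefSeq promoter entries (GRCm38.p6, 250 bases before and 50 after each start site) were found for Prdx1 to Prdx5 and not for Prdx6. The part before the first start site annotated in either RefSeq or GENCODE is printed, 5′ to 3′ on the strand of the gene, at chr4:116685349-116685543 (plus strand, 195 bases) for Prdx1 and chr19:60874557-60874788 (minus strand, 232 bases) for Prdx3. Capitals mark matches on either strand to the antioxidant response element TGACNNNGC or to the AP-1 site TGACTCA.
Prdx1: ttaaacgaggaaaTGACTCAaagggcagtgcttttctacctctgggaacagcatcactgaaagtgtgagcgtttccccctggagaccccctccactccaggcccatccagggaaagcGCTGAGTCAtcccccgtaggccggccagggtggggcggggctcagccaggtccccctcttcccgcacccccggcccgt
Prdx3: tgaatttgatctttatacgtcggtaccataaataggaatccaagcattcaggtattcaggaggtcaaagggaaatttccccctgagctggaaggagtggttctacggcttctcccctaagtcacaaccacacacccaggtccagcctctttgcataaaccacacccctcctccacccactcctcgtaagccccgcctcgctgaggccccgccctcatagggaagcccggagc

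Prdx1 held 1 antioxidant response element, on the strand opposite to the gene, from -133 to -125 counted from the RefSeq start site at 0. An AP-1 match from -131 to -125 lies within it, and a second AP-1 match lies from -237 to -231. None of the promoters of Prdx2, Prdx3, Prdx4 and Prdx5 held either set of letters. Over all 32851 promoter entries, 12.4% held TGACNNNGC and 5.20% held TGACTCA on either strand, so 1 of 5 members is a count from which nothing can be read. The other motifs were also searched on both strands. The TATA box, searched as TATAAA, occurred in Prdx1 from -29 to -24, beyond the stretch printed, and far from the start in Prdx3, against 13.6% of all promoters. The GC box, searched as GGGCGG, occurred in all 5 members against 35.7% of all promoters. The promoters of these 5 held 57.0% to 68.7% G or C bases, against 53.8% over promoters sampled from all entries. The comparison was not adjusted for this, so nothing is read from it. The E-box, searched as CACGTG, occurred in Prdx4 alone among the members and in 7.15% of all promoters. A match is a set of letters and not a measured binding site.

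**Figure D2:**
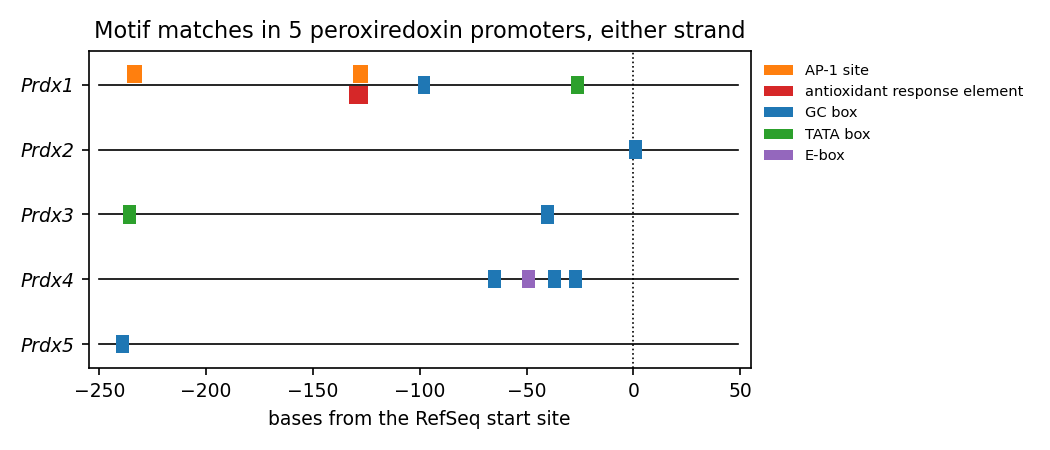
Position of motif matches on either strand in the promoter entries of Prdx1 to Prdx5, in bases from the RefSeq start site (dotted line). The antioxidant response element appears in Prdx1 from -133 to -125, overlapping an AP-1 site, and in none of the other 4 promoters drawn.

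Prdx6, the glutathione-linked member that also has phospholipase activity, showed the largest ratios of the family against the control. It lies on GRCm38 chromosome 1, 161240112 to 161251219, minus strand (ENSMUSG00000026701.15, 9 annotated transcripts). Its level was 32.2 FPKM (control), 71.5 FPKM (NELL2) and 112 FPKM (Fn1 knockdown), or about 1200, 2800 and 4500 fragments. As for Prdx1, the control was lowest and the knockdown library highest. The log2 ratio of FPKM + 1 to the control was 1.13 with NELL2 and 1.77 after knockdown, and knockdown exceeded NELL2 by 0.64, less than the 0.87 of Prdx1. No exon of another gene overlapped Prdx6, none of its 5486 stretches of 100 bases occurred in another gene, and its copies Prdx6b and Prdx6-ps2 were at 0.0100 FPKM or less. Its neighbours Ankrd45 and Tnfsf4 were at most at 0.0681 FPKM in any library.

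Prdx2, the cytosolic relative of Prdx1 that is abundant in red cells, had control, NELL2 and knockdown levels of 95.6, 106 and 96.8 FPKM. The control and knockdown libraries differed by 1.26%, a log2 ratio of 0.018, and 94.1% of the genes compared had a larger ratio in either direction. It lies on GRCm38 chromosome 8, 84969587 to 84974834, plus strand (ENSMUSG00000005161.15). Its exons share 177 bases with Rnaseh2a and 173 bases with Junb, both on the opposite strand. Since the use of strand in counting is not stated, reads from those bases cannot be assigned. Rnaseh2a (8.28, 6.39 and 8.40 FPKM) and Junb (40.4, 48.1 and 43.1 FPKM) were both lower than Prdx2 in every library.

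Prdx3, the mitochondrial member, had control, NELL2 and knockdown levels of 33.1, 36.4 and 43.1 FPKM. It lies on GRCm38 chromosome 19, 60864051 to 60874556, minus strand (ENSMUSG00000024997.7), with a single annotated transcript and no stretch of 100 bases found elsewhere. Its log2 ratio to the control was 0.13 with NELL2 and 0.37 after knockdown. It was the only one of these 4 genes with the same order of libraries as Prdx1 and Prdx6, and its knockdown ratio was exceeded in size by 17.3% of the genes compared.

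Prdx4 is the member of the endoplasmic reticulum, where it takes part in oxidative protein folding. It lies on GRCm38 chromosome X, 155323918 to 155340754, minus strand (ENSMUSG00000025289.15). The control, NELL2 and knockdown levels were 44.6, 53.9 and 48.5 FPKM. The NELL2 library was the highest, with log2 ratios to the control of 0.27 with NELL2 and 0.12 after knockdown.

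Prdx5 is found in mitochondria, peroxisomes and the cytosol. It lies on GRCm38 chromosome 19, 6906697 to 6910106, minus strand (ENSMUSG00000024953.17). The control, NELL2 and knockdown levels were 77.3, 85.6 and 69.7 FPKM. It was the only member below the control after knockdown, with a log2 ratio of -0.15, and its ratio with NELL2 was 0.15. Its exons share 409 bases with Trmt112 on the opposite strand, which was at 26.6, 24.6 and 27.8 FPKM, and 12.3% of its stretches of 100 bases occurred there.

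The members were then read against all genes. A gene counted as past 2-fold needed a difference of at least 1 in log2(FPKM + 1) and at least 1 FPKM in the higher library, and all 6 members passed that filter in every comparison. With NELL2 overexpression, Prdx6 alone was past 2-fold, against 0.652% of 12572 genes (0.374% higher and 0.278% lower). After Fn1 knockdown, Prdx1 and Prdx6 were past 2-fold and higher, against 1.23% of 12574 genes (0.684% higher and 0.549% lower). No member was past 2-fold between Fn1 knockdown and NELL2 overexpression, where 1.29% of 12596 genes were (0.627% higher and 0.659% lower). The members were chosen with these ratios known, so nothing is read from the counts. The median log2 ratio of the 6 members was 0.21 with NELL2 and 0.24 after knockdown, against 0.0072 and -0.0028 over all genes compared. It includes Prdx1 and Prdx6, which were picked on these ratios, so nothing is read from it either. The other 4 members ran from 0.13 to 0.27 with NELL2 and from -0.15 to 0.37 after knockdown.

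Among the 6513 genes that reached 10 FPKM in any library, Prdx6 had rank 16 by log2 ratio with NELL2 overexpression and rank 11 after Fn1 knockdown. Prdx1 had rank 122 and rank 20. The other 4 members had ranks from 400 to 1071 with NELL2 and from 532 to 5057 after knockdown. Both comparisons use the same control library, so a low or high control value enters both ratios of a gene.

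**Figure D3:**
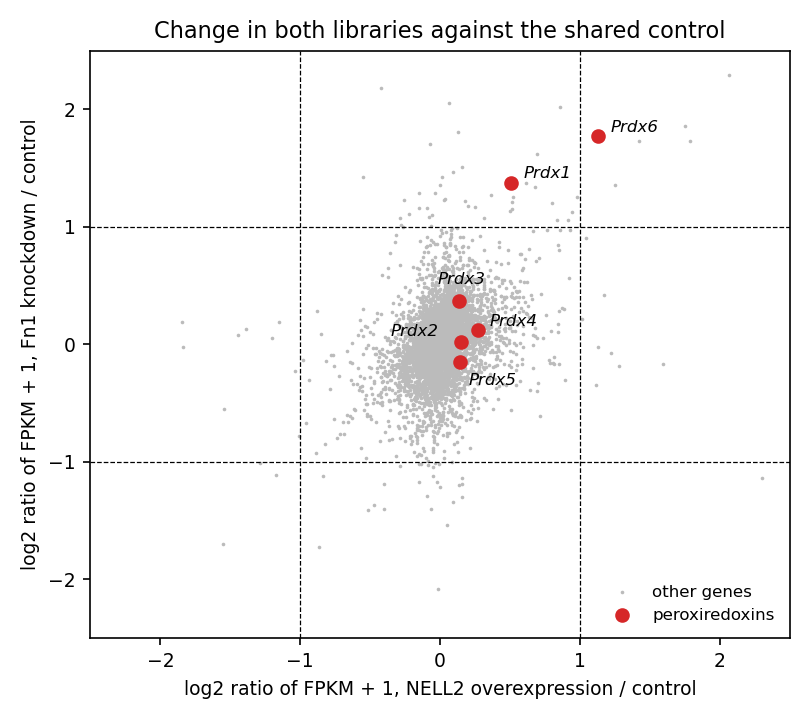
Log2 ratio of FPKM + 1 against the control with NELL2 overexpression (horizontal) and after Fn1 knockdown (vertical) for genes whose highest library held at least 10 FPKM (grey, with 12 of 6513 outside the axes) and the 6 peroxiredoxins (red). Dashed lines mark 2-fold, and both axes share the control library. Prdx6 lies past 2-fold on both axes, Prdx1 past it on the vertical axis, and the other 4 members near the centre.

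The weight of each member within the family moved with these changes. The summed level of the 6 members came to 611 (control), 821 (NELL2) and 1224 FPKM (knockdown), which is 134% and 200.4% of the control. Prdx2, Prdx3, Prdx4 and Prdx5 together were at 251, 282 and 258 FPKM, or 113% and 103% of the control. Most of the difference in the sum therefore lay in Prdx1, whose share of family FPKM was 53.7%, 56.9% and 69.7% in the control, NELL2 and knockdown libraries. Prdx6 made up 5.27%, 8.71% and 9.17%. The family held 0.153%, 0.206% and 0.309% of all FPKM.

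The order of levels changed accordingly. In the control, Prdx1 was followed by Prdx2, Prdx5, Prdx4, Prdx3 and Prdx6, and Prdx3 and Prdx6 were nearly level at 33.1 and 32.2 FPKM. Prdx6 stood between Prdx5 and Prdx4 with NELL2 overexpression and second after Fn1 knockdown, above Prdx2 at 96.8 FPKM. Prdx1 exceeded Prdx6 10.2-fold in the control, 6.53-fold with NELL2 and 7.61-fold after knockdown. Without replicates, which neighbours in this order differ beyond their spread cannot be said.

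**Figure D4:**
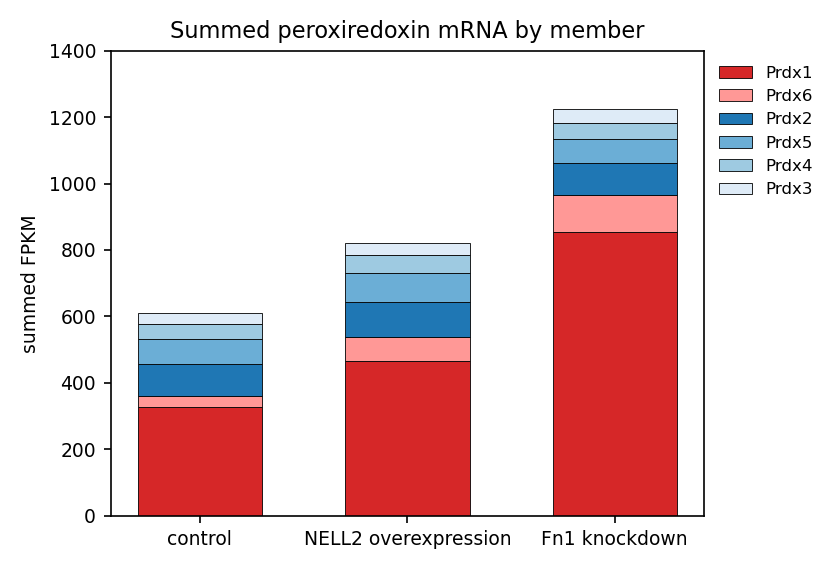
Summed FPKM of the 6 peroxiredoxins in each library, stacked by member, with 1 library a bar and the axis starting at 0. The bars reach 611, 821 and 1224 FPKM, and most of the growth lies in the segments of Prdx1 and Prdx6 (red tones). The other 4 (blue tones) sum to 251, 282 and 258 FPKM.

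Genes that work with the peroxiredoxins were examined in 10 lists of 75 genes, of which 71 reached 1 FPKM in each comparison. With NELL2 overexpression, none of the 71 was past 2-fold in either direction. The largest log2 ratio was that of Gpx1, at 0.66, below the 1.13 of Prdx6. After Fn1 knockdown, 5 of the 71 (7.04%) were past 2-fold, all higher, against the 0.684% of all genes given above. They were Srxn1, Taldo1, Gsta4, Slc7a11 and Aldh3a1. With a pseudocount of 5 in place of 1, which weighs low levels less, 2 of them (Srxn1 and Taldo1) stayed past 2-fold, and the calls of Gsta4, Slc7a11 and Aldh3a1 ended. Between knockdown and NELL2 overexpression, 4 of the 71 (5.63%) were past 2-fold, again all higher, against 0.627% of all genes. They were Srxn1, Taldo1, Gsta4 and Aldh3a1. A pseudocount of 5 ended the call of Aldh3a1 there, and one of 0.1 added Slc7a11. With no test, nothing is concluded from these shares.

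Among the enzymes that regenerate peroxiredoxins, sulfiredoxin moved most after Fn1 knockdown, though not with NELL2 overexpression. Srxn1, which repairs overoxidised peroxiredoxins, had control, NELL2 and knockdown levels of 38.7, 43.2 and 112 FPKM, a log2 ratio of 1.51 after knockdown. Only the knockdown library was high. None of the 9 genes of the thioredoxin system was past 2-fold, and their median log2 ratio was 0.017 with NELL2 and 0.23 after knockdown. Txnrd1, the cytosolic thioredoxin reductase, was at 73.3, 72.6 and 108.9 FPKM in the control, NELL2 and knockdown libraries. Txn1, cytosolic thioredoxin, was at 156, 172 and 182 FPKM, and mitochondrial Txn2 at 30.1, 33.7 and 35.6 FPKM. Txnip, which binds and inhibits thioredoxin, was above the control in the NELL2 and the knockdown library, at 25.1, 34.6 and 32.5 FPKM. The 3 sestrin genes, with roles beside sulfiredoxin in stress responses, had log2 ratios between -0.23 and 0.094, and the median over the 4 genes was 0.012 with NELL2 and 0.036 after knockdown.

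The glutathione side, on which Prdx6 depends, was also without a called gene in the NELL2 library. Of the pi-class transferases, Gstp1 was at 153, 166 and 191 FPKM and its near-identical neighbour Gstp2 at 7.33, 9.75 and 11.1 FPKM, so reads could have been divided between them. Their median log2 ratio was 0.24 with NELL2 and 0.42 after knockdown. Slc7a11, the cystine importer that feeds glutathione synthesis, rose past 2-fold after Fn1 knockdown, from 2.27 to 6.24 FPKM (log2 ratio 1.15), and was at 2.75 FPKM with NELL2. Gclc, the catalytic subunit of the first enzyme of that synthesis, was at 20.4, 21.2 and 34.9 FPKM, and its partner Gclm at 8.67, 12.7 and 12.8 FPKM. Gclm was thus nearly the same distance above the control in both libraries, whereas the log2 ratio of Gclc was 0.057 with NELL2 and 0.75 after knockdown. Over the 9 genes of glutathione synthesis, reduction and glutaredoxins the median log2 ratio was 0.057 with NELL2 and 0.42 after knockdown, and Glrx was the lowest at 23.9, 17.5 and 17.5 FPKM.

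Enzymes that remove peroxide beside the peroxiredoxins differed among themselves. Gpx1, the cytosolic glutathione peroxidase, followed the order of Prdx1 and Prdx6 at 18.8, 30.4 and 37.8 FPKM, and its knockdown log2 ratio of 0.97 lay just short of the 2-fold limit. Catalase (Cat) was at 46.0, 46.7 and 71.8 FPKM. Gpx4, which reduces lipid peroxides, was at 220.4, 222.9 and 206 FPKM. The 6 catalase and glutathione peroxidase genes that passed the filter split evenly after knockdown, 3 higher and 3 lower, with medians of 0.018 with NELL2 and 0.010 after knockdown. Superoxide dismutases, which supply hydrogen peroxide, were not past 2-fold, with Sod1 at 184, 177 and 187 FPKM and medians over the 3 genes of 0.18 and 0.022.

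**Figure D5:**
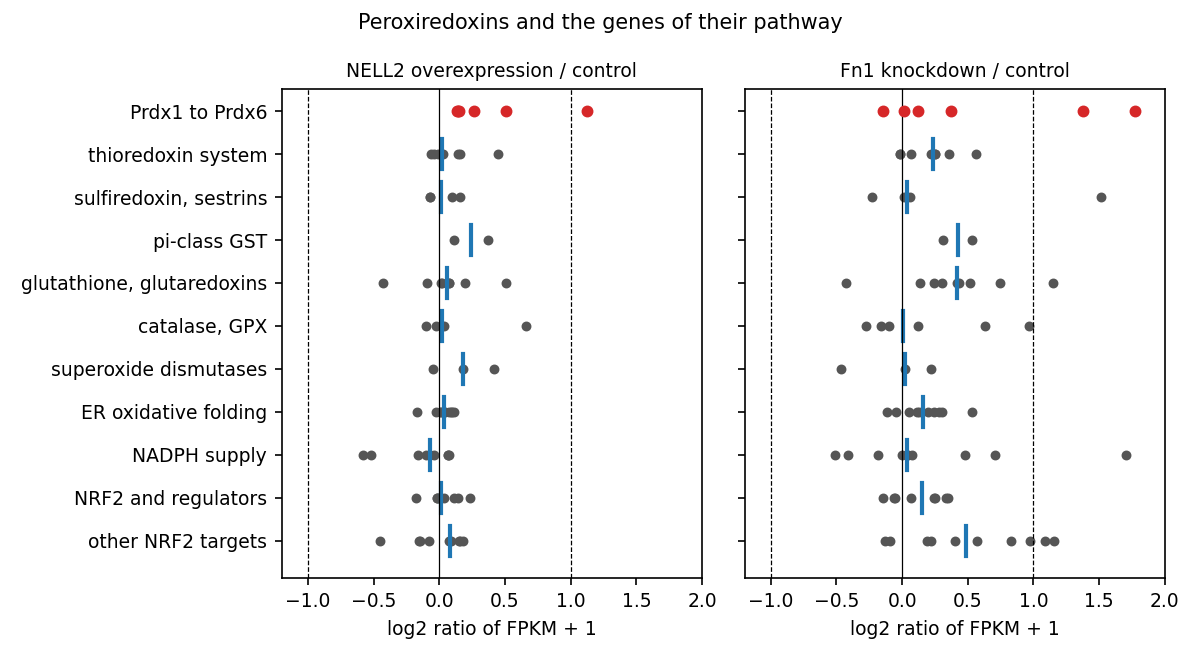
Log2 ratio of FPKM + 1 against the control for the 6 peroxiredoxins (red) and for genes at 1 FPKM or more in 10 lists (grey, with blue bars at list medians), with NELL2 overexpression on the left and Fn1 knockdown on the right. Dashed lines mark 2-fold. On the left Prdx6 alone lies past a dashed line, and on the right Prdx1, Prdx6 and 5 listed genes do.

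Around Prdx4, the 10 genes of oxidative folding in the endoplasmic reticulum had median log2 ratios of 0.039 with NELL2 and 0.16 after Fn1 knockdown, and none was past 2-fold. P4hb, the protein disulfide isomerase, was at 341, 358 and 369 FPKM, and Ero1l, which passes oxidising power to it, at 18.1, 19.4 and 26.7 FPKM. Of the NADPH suppliers, Taldo1, an enzyme of the pentose phosphate pathway, was at 35.6 and 33.8 FPKM in the control and NELL2 libraries and at 118 FPKM after knockdown, a log2 ratio of 1.70. Pgd of the same pathway was at 134, 140.5 and 220 FPKM, with a log2 ratio of 0.71 after knockdown. Tkt, also of that pathway, was at 73.3, 77.3 and 73.4 FPKM. Pgls of the same pathway was lower than the control in both libraries, at 42.4, 29.3 and 29.5 FPKM. The lowest log2 ratio of the list with NELL2 was that of Nnt, the mitochondrial transhydrogenase, at -0.58, and mitochondrial Idh2 had a ratio of -0.41 after knockdown. Over the 10 genes of the list the medians were -0.070 and 0.036.

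None of the 8 genes of NRF2 and its regulators was past 2-fold. Nfe2l2, which encodes NRF2, was at 65.0, 70.4 and 77.6 FPKM and its repressor Keap1 at 11.7, 13.9 and 12.3 FPKM, and the list had median log2 ratios of 0.013 with NELL2 and 0.15 after knockdown. After knockdown the ratios ran from -0.14 for Bach1, a repressor of NRF2 targets, to 0.35 for Mafk, a small Maf partner of NRF2, with Sqstm1 at 0.33, Nfe2l2 at 0.25 and Mafg at 0.24. NRF2 is regulated largely through protein stability, which RNA does not measure. Of 10 further NRF2 target genes, Gsta4 (9.17, 8.15 and 21.7 FPKM) and Aldh3a1 (4.53, 4.22 and 10.7 FPKM) were past 2-fold after knockdown. Nqo1, at 92.7, 97.8 and 183 FPKM, lay just short of it with a log2 ratio of 0.97. The median of the 10 was 0.077 with NELL2 and 0.49 after knockdown.

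The letters found upstream of Prdx1 also occurred near genes of these lists. Of 63 listed genes with a promoter entry, 14 (22.2%) held TGACNNNGC, against 13.99% of all 27025 genes with an entry. The windows below give the match in capitals with 10 bases on either side, each read on the minus strand of GRCm38.p6, for Prdx1 (chr4:116685456-116685484), Txnrd1 (chr10:82859104-82859132), Gclm (chr3:122245413-122245441) and Me1 (chr9:86695902-86695930). They are shown to set the Prdx1 letters beside those of a thioredoxin reductase, a glutathione synthesis enzyme and the listed gene with the same 9 letters. They are thus a choice among the listed genes that held a match. Of the further NRF2 target genes, Nqo1, Blvrb, Ftl1, Fth1, Gstm1 and Cbr1 had a promoter entry, and none of these held the letters. Nfe2l2, Mafg, Mafk and Maff of the regulator list did. Txnrd1 has 3 promoter entries and Me1 has 2, and 1 entry of each held the match.
Prdx1: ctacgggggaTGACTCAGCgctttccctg
Txnrd1: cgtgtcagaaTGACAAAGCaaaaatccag
Gclm: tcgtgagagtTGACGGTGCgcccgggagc
Me1: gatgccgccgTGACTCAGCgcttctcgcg

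Me1, malic enzyme, was at 69.5, 66.2 and 71.8 FPKM in the control, NELL2 and knockdown libraries. The 14 listed genes that held the letters had log2 ratios after knockdown from -0.053 (Maff) to 1.51 (Srxn1), with Pgd at 0.71, Txnrd1 at 0.56, Gclm at 0.52, G6pdx at 0.48 and Me1 at 0.046. Nothing about the factor is read from these matches. Of the 5 listed genes past 2-fold after knockdown, 3 had a promoter entry, and Srxn1 alone of these held the letters, after its start site. Taldo1 and Slc7a11 did not hold them within this window.

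Finally, genes with ratios most like those of Prdx1 and Prdx6 were sought among the 6513 genes whose highest library reached 10 FPKM. Likeness was the Euclidean distance in the pair of log2 ratios to the control, which rests on 3 libraries. A gene below 10 FPKM in the control passed only if it was higher elsewhere, so the filter favours genes that rise. Of the genes named below, Pla2g15, Smim4, H2-Q6 and H2-Q7 reached 10 FPKM in the knockdown library alone, and nothing is read from their likeness. Nearest to Prdx1 were Pla2g15 (distance 0.11), Smim4 (0.12), Ciapin1 (0.17), H2-Q4 (0.17) and Vkorc1 (0.17). Pla2g15 was at 4.96, 8.14 and 14.4 FPKM in the control, NELL2 and knockdown libraries. H2-Q4, the only one of these 5 above 50 FPKM in the control, was at 54.1, 87.1 and 139 FPKM. Nearest to Prdx6 were Dcbld2 (0.29), H2-Q6 (0.37), Vash2 (0.43), H2-Q7 (0.46) and Kpna1 (0.54), all farther away than the neighbours of Prdx1. By ratio, Prdx6 had rank 16 with NELL2 and rank 11 after knockdown among the 6513, against 122 and 20 for Prdx1. Fewer genes lie as far out as Prdx6, so its distances and those of Prdx1 cannot be compared. Dcbld2 was at 6.98, 20.3 and 25.6 FPKM. The H2-Q genes are close copies of each other, so their single values are uncertain. No gene of the 10 lists was among these 10.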

How the data were processed

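Polyadenylated RNA was sequenced as paired ends. The authors mapped reads with HISAT2 and normalized them with DESeq, and the submitters' processing notes name GRCm38. The authors deposited FPKM per gene name, 1 column a library. The program behind FPKM, the annotation and the use of strand are not given in the sources used here. The planned call rule was applied to FPKM with a pseudocount of 1. On this scale a fold change of a low gene is understated. The study's moderated test could not be used with 1 library a group. A fixed rule named the members, their neighbours, copies and listed genes, and the 5 genes most like Prdx1 and Prdx6. The members and lists were chosen with earlier results of these data known.

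Positions, overlaps and transcripts came from GENCODE M21 (GRCm38), and promoters from RefSeq. Of the table's rows, 187 carried a repeated name and were left out of analyses by gene name. Depth was the FPKM worth of 1 fragment in genes with a single transcript of at least 600 bases. Since 46.1% to 46.8% of low values lay within 0.1 of a whole fragment, the values did not give whole reads back. Fragment numbers are therefore approximate and carry no interval. Scripts ran in Python 3.11.15 with pandas 2.3.3 and were tested on simulated data. Other pseudocounts (0.1 and 5), filters (none and 5 FPKM), scalings and folds (1.5 and 4) were tried.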

Additional observations from a re-analysis of the deposited data

How the results depend on the processing

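Prdx1 and Prdx6 kept their side of 2-fold in each comparison under every pseudocount, filter and scaling tried, and 143 recomputed member ratios kept their sign and side. The exception was Prdx2 after Fn1 knockdown, with FPKM scaled to a common sum without Fn1, Nell2 and mitochondrial genes. Its log2 ratio was then -0.00065, against 0.018 as reported. The filters could neither change a member ratio nor drop a member, since the lowest member value was 32.2 FPKM. For the members, the filter settings therefore tested nothing. A 1.5-fold limit put 2 members, Prdx1 and Prdx6, past it between Fn1 knockdown and NELL2 overexpression, and a 4-fold limit put 0 members past it in either comparison with the control. All 210 recomputed list medians moved by less than 0.1, but calls were lost. With a pseudocount of 5, the listed genes past 2-fold after Fn1 knockdown were 2 in place of 5, against 29 in place of 86 among all genes higher. The other 20 recomputed counts of listed genes were within 1.5 times the reported ones.

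Counts over all genes are given as NELL2 overexpression against control, Fn1 knockdown against control, and Fn1 knockdown against NELL2 overexpression. They were 82, 155 and 162 as reported, 178, 358 and 353 with a pseudocount of 0.1, and 26, 50 and 46 with a pseudocount of 5. A 1.5-fold limit gave 325, 784 and 806, and a 4-fold limit 16, 22 and 19. A filter of 5 FPKM gave 47 for the first. The scaling factors lay between 0.992 and 1.01, so scaling tests little. The cause was not tested. No paired analysis was possible because the design holds 1 library for each group, which also means that no library could be left out. Counting error could not be separated from differences between cultures, which were not measured.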
